A study of Marchantia polymorpha with 12 samples.

Results

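The genes described here are those of the liverwort Marchantia polymorpha whose annotated strand carried fewer reads than the strand opposite to it. A gene row was taken when its opposite-strand counts, summed over 12 libraries, reached 100 and exceeded its sense counts. The rule chose 618 of 19441 gene rows (3.18%), which are 33.2% of the 1859 rows with an opposite-strand sum of at least 100. RNA was read from 14-day thalli, the flat haploid body of the plant, as polyadenylated RNA in libraries that keep the strand. All 12 libraries carried Mpknox2-1, a mutant allele of the homeodomain gene MpKNOX2. In set 1, 3 libraries with Mpknox2-1 alone stood beside 3 of the double mutant Mpknox2-1 Mpez1-1. In set 2, another 3 with Mpknox2-1 alone stood beside 3 of Mpknox2-1 Mpez1-2. The single mutants served as the controls of their set, no unmutated plant was analysed here, and each Mpez1 allele occurred in 1 set, so that allele and set cannot be told apart. The column headers of set 2 carry the name Tak2, a laboratory accession of the species, while the labels name no accession for either set. The labels call the replicates biological, and p-values measure the spread between them. Where RNA of bulk thalli differs, fewer cells of a type and less RNA per cell cannot be told apart.

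MpE(z)1 encodes the catalytic subunit of PRC2, the Polycomb complex that methylates histone H3 at lysine 27 and keeps genes silent. RNA from the strand opposite to a gene is known in plants as natural antisense RNA, and transcripts of convergent or overlapping neighbours also give reads there. Antisense RNA can pair with sense RNA and feed small RNA pathways, in which Argonaute proteins carry the small RNAs. The count tables hold no strand, position or length for a gene, so the orientation of neighbours is not given. For each member the nearest ids are the gene rows numbered directly before and after it on its chromosome. Counts of different ids are set side by side as counts, not per length.

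Sense gene counts were 7019900 to 12098548 per library, and opposite-strand gene counts were 126357 to 225298. The gene targeted in the double mutants, MpE(z)1 (Mp5g18040, also MpCXC3), gave 360, 304 and 248 sense counts in control libraries of set 1 against 120, 123 and 80 with Mpez1-1. Controls of set 2 gave 392, 344 and 416 and the Mpez1-2 libraries 165, 217 and 204, so all double mutant libraries lay below their controls. MpKNOX2 (Mp7g05320, also MpHD21) had 0 to 2 counts in the controls and 3 to 15 in the double mutants, and neither gene was a member. Of 8 thallus markers, 6 were matched by symbol and all 6 had at least 100 sense counts. Their summed level was 254 counts per 1000000 sense gene counts (CPM) in set 1 controls, 200 with Mpez1-1, 305 in set 2 controls and 254 with Mpez1-2. MpNOP1, MpKAR, MpC3HDZ and MpYUC2 had lower means in both double mutants. MpTAA and MpGCAM1 had higher ones, MpGCAM1 with 3.71 against 8.13 CPM in set 1 and 1.34 against 4.38 in set 2. Of 8 markers of gametangia and germ cells 6 were matched, with summed levels of 66.8, 54.9, 128 and 107 in the same order of groups, and MpPRM and MpLC7 lay at or near 0 (2 and 7 counts over all libraries). MpRKD gave most of these sums (60.9, 43.6, 122 and 101 CPM). MpGCS1 went from 3.21 to 7.90 CPM in set 1 and from 3.74 to 3.85 in set 2, and MpDUO1 from 2.47 to 2.68 and from 2.34 to 1.64. Of 4 sporophyte markers 3 were matched, with summed levels of 33.2, 27.2, 26.0 and 28.5. MpLFY gave most of these sums (32.3, 23.8, 25.2 and 25.7 CPM). MpBELL3 went from 0.305 to 0.757 CPM in set 1 and from 0.264 to 1.17 in set 2, and MpBELL4 from 0.538 to 2.57 and from 0.518 to 1.68. MpBELL3 and MpBELL4 from that last list are themselves members.

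The members held 1446131 of the 2127034 opposite-strand counts of all gene rows (68.0%) and 79642 sense counts, 0.0698% of all. A few rows carried much of this, with 36.0% of the members' opposite-strand counts in 3 members and 55.3% in 12. The median member had 429.5 opposite-strand and 21 sense counts over the 12 libraries. Opposite-strand sums were under 1000 in 427 members, from 1000 to 10000 in 176 and higher in 15. In 399 members the opposite strand held at least 10 times the sense counts and in 189 at least 100 times, while 35 members had no sense count and 80 had a ratio under 2. Since these sums chose the members, they are a description. The excess was present in all 12 libraries for 471 members. With the minimum lowered to 50 in proportion, 560 members met the rule in the controls alone, 584 in the double mutants alone and 526 in both, so 58 owe their place to the double mutants and 34 to the controls. Per library, the members' opposite strand made up 93.9% to 95.9% of their counts and amounted to between 11600 and 13770 CPM.

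**Figure D1:**
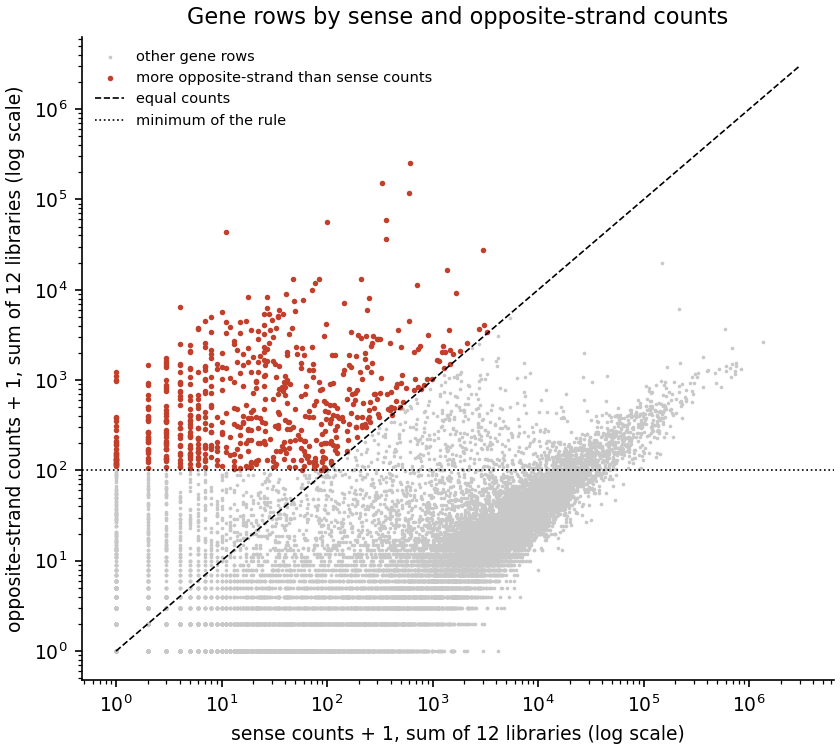
Sense counts (horizontal) and opposite-strand counts (vertical) of each gene row, summed over 12 libraries, both plus 1 on log scales. The 618 members, in red, lie above the diagonal of equal counts and the dotted minimum of 100, and most of the 19441 rows lie far below the diagonal.

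At the edge of the rule, the members with the smallest excess were Mp8g01820 with 412 opposite-strand and 407 sense counts, Mp3g18900 with 1490 and 1466, and Mp8g14110 with 800 and 780. Directly outside lay Mp6g06910 with 481 opposite-strand and 487 sense counts, Mp1g21260 with 153 and 158, and Mp4g01240 with 2258 and 2364. The members closest to the minimum were Mp8g06000, Mp1g05810 and Mp7g18990, with 100, 101 and 102 opposite-strand counts, and Mp2g05700, Mp7g08670 and Mp2g23710 missed it with 99, 99 and 98. The boundary thus falls within a continuous range of values.

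Presence in the reference gene table is a property the rule did not use, and its shares are given with no test. Of the 618 members 509 (82.4%) had an entry of the same number in assembly MpTak2 version 7.1, against 1233 of the 1241 other rows with an opposite-strand sum of at least 100 (99.4%). Among all 19441 rows the share was 90.7%, and among the 12888 rows with a sense sum of at least 100 it was 98.2%. The rule takes rows with few sense counts, and shares were not compared at like sense counts. A lower share is therefore not shown to be particular to the members. The 109 members without an entry had a median of 6 sense counts, and the 509 with one had a median of 30. A gene symbol was given to 38 members (6.15%) and to 21.7% of the other rows at or over the minimum. All but 1 member, on an id with the chromosome letter z, lay on chromosomes 1 to 8, at 2.74% to 3.59% of the gene rows of each, with 98 on chromosome 1 and 66 on chromosome 8. None of the V chromosome rows was a member. How many reads those rows held is not given here, so their absence is no result about location. Among the members, 39 stood next to another member.

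Most members stood beside a gene with far more sense counts. In 549 of 618 members the opposite-strand sum did not exceed the sense sums of both nearest ids, and in 69 it did. The same count was not made for other rows, and 12888 of all 19441 gene rows had a sense sum of at least 100. A neighbour with more counts is therefore not shown to be particular to the members. The median member's opposite-strand sum was 12.8% of the sense sum of its higher nearest id. It reached 0.5 of that sum in 126 members and stayed under 0.1 of it in 287.

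In 10 members the opposite-strand count equalled the sense count of a nearest id within 10% in every library. The largest member, Mp1g24335, had 251244 opposite-strand counts beside 252175 sense counts of Mp1g24330, a ratio of 0.994 to 0.998 over the libraries. The converse also held for this pair, with 603 sense counts of Mp1g24335 beside 616 opposite-strand counts of Mp1g24330. Mp4g10360 had 152454 opposite-strand counts beside 153988 sense counts of Mp4g10350. For Mp1g17700 and its neighbour Mp1g17690 the sums were 116536 and 116282. Smaller pairs were Mp4g08910 with Mp4g08920 (16387 and 16376) and Mp6g07570 with Mp6g07580 (7516 and 7514). The sums of Mp8g08530 and Mp8g08540 were 4609 and 4675, and those of Mp7g04520 and Mp7g04530 were 4526 and 4509. The last were Mp2g02170 with Mp2g02180 (2541 and 2521), Mp3g08360 with Mp3g08370 (2050 and 2016), and Mp4g12940 with Mp4g12930 (1872 and 1895). Within each pair the sums differed by under 2%. Mp1g24335, Mp4g10360, Mp6g07570 and Mp8g08530 had no entry in the reference table, while all 10 neighbours had one. Whether the same reads were counted in both rows of a pair is not stated in those sources.

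The 3 largest members differed between double mutants and controls. The opposite strand of Mp1g24335 gave 22650, 29481 and 23283 counts in controls of set 1 against 9731, 10048 and 5742 with Mpez1-1. In set 2 it gave 28406, 30218 and 31683 against 17091, 20541 and 22370 with Mpez1-2. Scaled to the libraries, these were 2301 ± 191 and 1033 ± 194 CPM in set 1 and 2964 ± 231 and 2269 ± 110 CPM in set 2 (mean ± SD, n = 3). Every double mutant library lay below its controls. On the log2 scale the fall was -1.14 ± 0.15 (± SE, edgeR adjusted p 0.00144) in set 1 and -0.39 ± 0.05 (adjusted p 2e-06) in set 2. Its neighbour Mp1g24330 fell on the sense strand by the same size, -1.14 and -0.40. The few sense counts of Mp1g24335 fell too, by -0.80 ± 0.25 in set 1 (adjusted p 0.029) and by -0.92 ± 0.22 in set 2 (adjusted p 0.00455). The sense call in set 1 was lost without any of the control libraries and without Mpez1-1 replicate 2 or 3.

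Mp4g10360 fell with Mpez1-1, from 24620, 27279 and 25281 counts in the controls to 7911, 7333 and 3499 (log2 change -1.64 ± 0.22, adjusted p 0.00148). Set 2 gave 10138, 10238 and 11675 in controls against 7510, 8726 and 8244 with Mpez1-2, a change of -0.19 ± 0.06 (adjusted p 0.0365). The set 2 call was lost without control replicate 3 and without Mpez1-2 replicate 1 or 3. Scaled values were 2369 ± 190 against 754 ± 239 in set 1 and 1051 ± 98.0 against 930 ± 52.0 in set 2. The set 2 controls thus stood nearer to the Mpez1-1 libraries than to the set 1 controls.

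Mp1g17700 rose in both sets. Controls of set 1 gave 13792, 8327 and 9520 opposite-strand counts against 19726, 22519 and 17071 with Mpez1-1. Controls of set 2 gave 2044, 2360 and 2038 against 5855, 6863 and 6421 with Mpez1-2. The scaled values were 977 ± 290 and 2430 ± 4.29 in set 1 and 212 ± 23.2 and 727 ± 43.7 in set 2, with no overlap between the groups of a set. The log2 changes were 1.33 ± 0.19 (adjusted p 0.00169) and 1.77 ± 0.07 (adjusted p 7.22e-18), the former lost with no filter on low counts. Its neighbour Mp1g17690 rose on the sense strand by 1.33 ± 0.20 and 1.78 ± 0.08. Mp1g17700 was the only one of the 3 largest to exceed both nearest ids.

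Among the other 9 of the 12 largest members, 3 passed in both sets. Mp7g13210 fell by -0.67 ± 0.13 (adjusted p 0.00834) and -0.43 ± 0.06 (adjusted p 6.09e-06), and its neighbour Mp7g13220 fell on the sense strand by -0.74 and -0.44. Mp2g05940 rose by 0.45 ± 0.09 (adjusted p 0.00949) and 0.60 ± 0.07 (adjusted p 3.43e-07). Mp4g08910 rose most, from 49.7 ± 10.1 to 394 ± 106 CPM in set 1 and from 42.5 ± 9.47 to 151 ± 4.33 in set 2. Its log2 changes were 3.0 ± 0.24 (adjusted p 9.1e-05) and 1.82 ± 0.11 (adjusted p 1.72e-10). Mp4g05170 (-0.24, adjusted p 0.045) and Mp6g11320 (-0.23, adjusted p 0.0482) passed in set 2 and not in set 1, without a difference between the sets that passed. The Mp4g05170 call held when Mpknox2-1 replicate 3 was left out and was lost without each other library of the set. The Mp6g11320 call was lost without control replicate 2 or 3 or Mpez1-2 replicate 1 or 3. Both were also lost with DESeq2, with no filter, without TMM, with the second tables' own totals and in the fit of all 12 libraries. Mp1g26950, Mp7g14680, Mp1g26570 and Mp8g09420 passed in neither set, with log2 changes between -0.29 and 0.22.

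The opposite strands of members changed in both directions in either double mutant. In set 1, 559 members passed the filter on low counts, of which 115 rose, 73 fell and 371 did not pass, beside 19.8% called of all rows tested. Rises made up 20.6% of the tested members, against 14.1% of all 1839 gene rows tested on the opposite strand, and falls 13.1% against 5.66%. In set 2, 557 members were tested, of which 86 rose, 42 fell and 429 did not pass, beside 16.7% called of all rows. Rises were 15.4% of the tested members against 10.8% of all 1549 rows, and falls 7.54% against 5.81%. These rows include the members, and no test was run between the shares. The 58 members that met the rule through the double mutants alone gave 35 of the rises in set 1 and 28 in set 2. The 34 that met it through the controls alone gave 7 and 2 of the falls and 1 rise, in set 2. Both kinds were placed by the counts of 1 genotype, so their calls are a description. Among the 526 members that met the rule in controls and double mutants alike, 490 were tested in each set, with 80 rises (16.3%) and 66 falls (13.5%) in set 1 and 57 rises (11.6%) and 40 falls (8.16%) in set 2. The median log2 change of the members was 0.11 in set 1 and 0.06 in set 2, beside 0.12 and -0.05 over all rows. A change of at least 1 on the log2 scale was reached by 92 risen and 50 fallen members in set 1, and by 65 and 11 in set 2. Members lower in set 1 numbered 42, 39 and 38 when control replicate 1, 2 and 3 were left out in turn, and 38 without Mpez1-1 replicate 2. In set 2 they numbered 23 without Mpez1-2 replicate 1.

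Of the 502 members tested in both sets, 52 rose in both and 23 fell in both, beside 6.94% and 2.13% of the 1268 rows so tested. Of the 52, 32 met the rule in both genotypes and 20 through the double mutants alone. A single member rose in set 1 and fell in set 2, a single one did the reverse, and 294 passed in neither. A call in set 1 and none in set 2 was made for 43 risen and 47 fallen members, and the converse for 26 and 15. A call in 1 set alone does not show that the sets differ, nor that they are alike. In the fit of all 12 libraries the mean of both sets passed upward in 137 members and downward in 91 of 618. These were 22.2% and 14.7% of the members, beside 14.7% and 7.9% of all 2292 rows (22.6% in either direction). Members placed by the counts of 1 genotype were not taken out here, so these shares are a description.

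**Figure D2:**
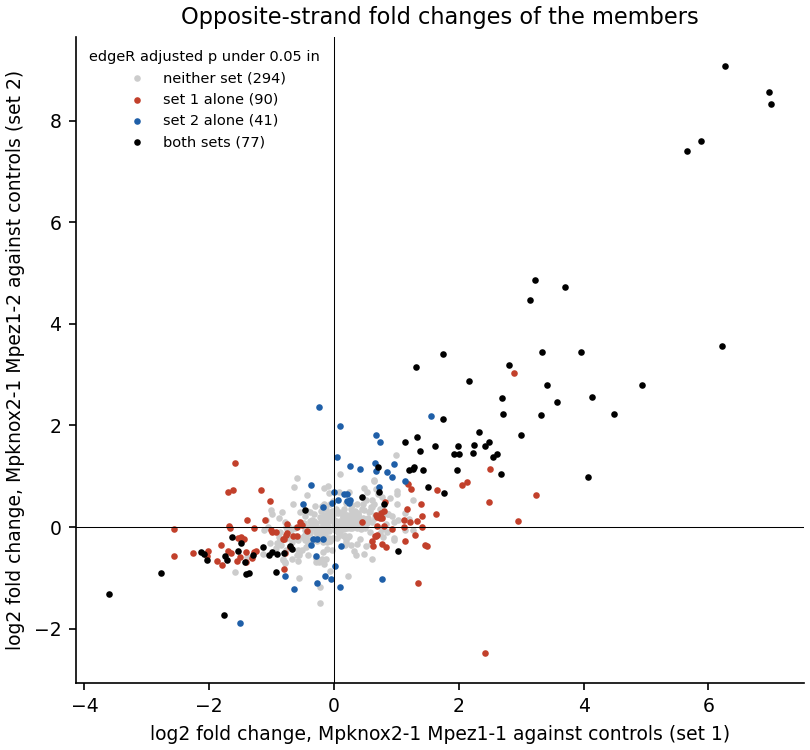
Opposite-strand log2 fold change in set 1 (horizontal) and set 2 (vertical) of the 502 members tested in both, coloured by the set in which the edgeR adjusted p was under 0.05. The 75 black points called in both sets in the same direction fall in the upper right (52) and lower left (23), and the 5 highest on both axes lay at or near 0 in controls, so that their fitted size is no bound.

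The 8 largest rises shared by both sets were of members that met the rule through the double mutants alone, most of them close to silent in the controls. Since the group in which they were high chose them, their values are a description. Mp6g20370 had no opposite-strand count in any control library. It had 12, 19 and 9 counts with Mpez1-1 and 38, 55 and 38 with Mpez1-2, and no sense count in any library. Against a floor of 3 counts over the control group it was at least 17.9-fold higher in set 1 and at least 50.5-fold higher in set 2. Its neighbour Mp6g20360 rose on the sense strand by 2.66 ± 0.14 and 1.96 ± 0.36.

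Mp8g04880 gave 1, 0 and 0 counts in set 1 controls against 47, 48 and 39 with Mpez1-1, a pooled ratio of 180 (exact 95% interval 31.7 to 7151, counting error only). In set 2 its counts went from 0 in all controls to 46, 31 and 34, at least 42.8-fold higher. Mp5g16410 went from 1, 1 and 0 to 56, 50 and 32 in set 1 (ratio 92.5, 25.1 to 772) and from 0 to 41, 74 and 74 in set 2, at least 72.9-fold higher. Mp5g16410 also held 228 sense counts over the libraries, and Mp8g04880 held 3. Mp6g07430 and Mp8g10600 behaved alike, with 0 to 1 opposite-strand counts per control library and 11 to 34 per double mutant library. Mp6g07440, the neighbour of Mp6g07430 named MpCCAAT-NFYC2 after a subunit of the CCAAT-binding factor, rose on the sense strand by 7.67 ± 1.13 and 7.97 ± 0.80.

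Mp7g07530, Mp2g25300 and Mp4g09470 complete the 8. Mp7g07530 had 8, 4 and 4 counts in the set 1 controls and 43, 56 and 57 with Mpez1-1 (log2 change 3.71 ± 0.41). In set 2 it went from 0, 2 and 1 to 24, 31 and 23, a pooled ratio of 30.1 (exact 95% interval 9.92 to 149). Mp2g25300 rose from 1, 2 and 2 to 102, 105 and 90 in set 1 (6.22 ± 0.36) and from 4, 6 and 5 to 36, 40 and 83 in set 2 (3.55 ± 0.42). Its neighbour Mp2g25310 rose on the sense strand by 2.90 and 1.46. Mp4g09470 rose from 8, 13 and 12 to 96, 116 and 162 (3.96 ± 0.38) and from 5, 3 and 5 to 40, 51 and 36 (3.45 ± 0.41), while its sense counts of 9 to 30 per library did not pass in either set. Mp4g09460 beside it rose on the sense strand by 5.65 and 4.55.

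Falls shared by both sets were smaller. Mp5g07530, with 5 sense counts in all, had 842, 1141 and 964 opposite-strand counts in the set 1 controls and 239, 289 and 128 with Mpez1-1 (-1.76 ± 0.21, adjusted p 0.001). The set 2 controls held 26, 29 and 25 counts and the Mpez1-2 libraries 2, 8 and 11 (-1.73 ± 0.44, adjusted p 0.00464). The set 1 controls thus stood at 90.1 ± 11.2 CPM and those of set 2 at 2.63 ± 0.258. Mp1g15570 fell from 287, 470 and 319 to 28, 32 and 6 in set 1 (-3.61 ± 0.41, adjusted p 0.000795) and from 548, 536 and 523 to 192, 200 and 163 in set 2 (-1.32 ± 0.11, adjusted p 1.72e-10). Its neighbour Mp1g15580 fell on the sense strand by -3.17 and -1.02, while Mp1g15560 on its other side rose by 0.56 and 0.30.

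Mp3g20220 fell by -1.41 ± 0.28 (adjusted p 0.00732) and -0.92 ± 0.14 (adjusted p 7.12e-06), and Mp7g13880 by -1.71 ± 0.18 (adjusted p 0.000488) and -0.66 ± 0.13 (adjusted p 0.000281). Mp7g13870, which stands before Mp7g13880 and is named MpGH28.7 after a glycoside hydrolase family, fell by -1.03 and -0.43. Mp8g14850, Mp2g24930 and Mp3g19460 also passed in both sets, each with calls that single libraries ended. Mp8g14850 (-2.78 and -0.91) lost its set 2 call without control replicate 2 or any Mpez1-2 library. Mp2g24930 (-1.36 and -0.91) lost its set 1 call without control replicate 2 or 3 or Mpez1-1 replicate 2, and its set 2 call without any library but control replicate 3. Mp3g19460 (-0.94 and -0.89) lost its set 1 call without any control or Mpez1-1 replicate 1, and its set 2 call without control replicate 2.

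A nearest id often changed on its sense strand in the same direction as the member's opposite strand. This held for 77 of the 115 members risen in set 1 (67.0%) and 47 of the 73 fallen (64.4%). In set 2 it held for 53 of 86 (61.6%) and 35 of 42 (83.3%). Among the other rows called on the opposite strand the shares were 84 of 145 (57.9%) and 17 of 31 (54.8%) in set 1, and 45 of 82 (54.9%) and 20 of 48 (41.7%) in set 2. A match at either nearest id was counted, and over all rows tested on the opposite strand 34.1% had a nearest id that rose and 32.6% one that fell in set 1, and 23.8% and 25.9% in set 2. The gene's own sense strand could be tested in few called members, since the rule takes rows with few sense counts. It passed in the same direction in 9 of the 29 risen and 3 of the 15 fallen members tested on it in set 1, and in 7 of 25 and 2 of 10 in set 2. Among the other called rows, which hold more sense counts by the rule, it did so in 96 of 131 and 17 of 29 in set 1. In set 2 it did so in 44 of 71 and 36 of 47 of them. No test between these shares was run.

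The size of the change came closer to that of the neighbour where the member held more of the neighbour's count. Of the 126 members with at least 0.5 of the higher nearest id's sense sum, 80 in each set were tested together with that id. Their opposite-strand and neighbour sense log2 changes lay a median of 0.30 apart in set 1 and 0.11 in set 2. For the tested members under 0.1 of it, the medians were 0.70 (n = 243) and 0.38 (n = 248). Across genes, Pearson's r between these changes was 0.63 and 0.79 in the former and 0.41 and 0.38 in the latter. Both values of a pair come from the same libraries, neighbouring rows may share reads, and genes are not independent replicates.

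**Figure D3:**
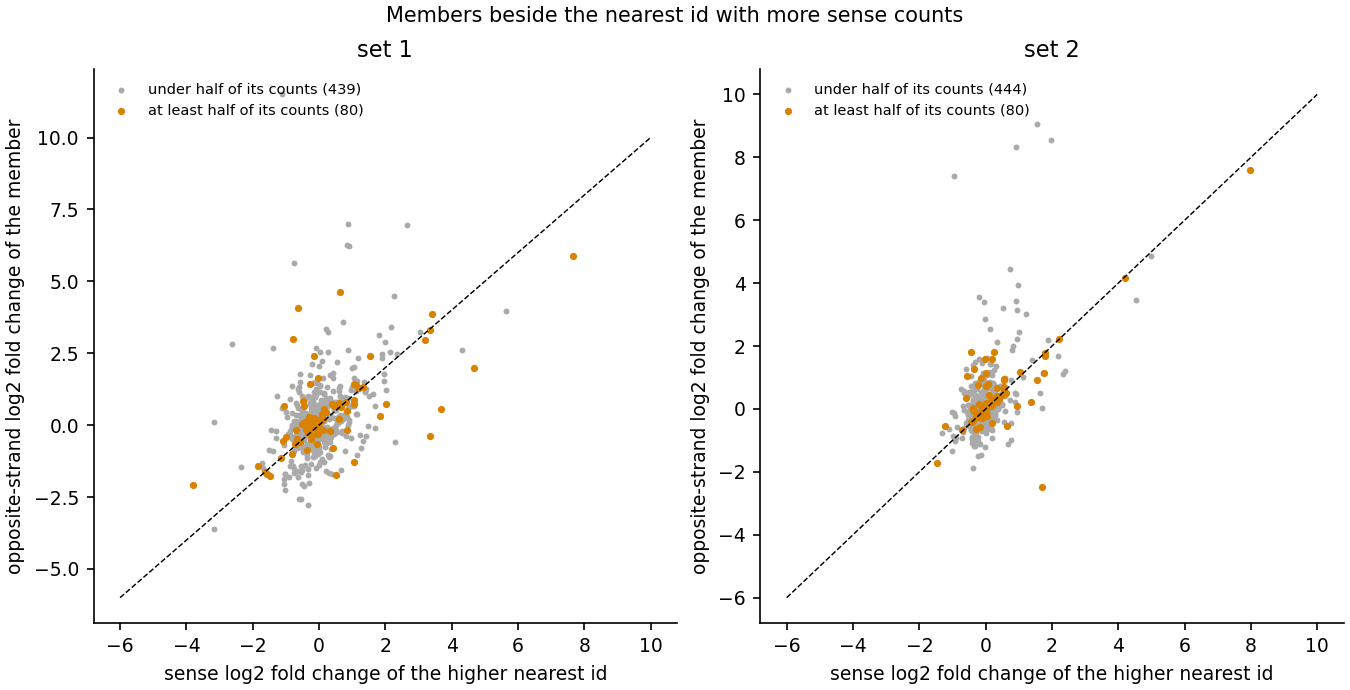
Opposite-strand log2 fold change of each member (vertical) against the sense log2 fold change of its higher nearest id (horizontal), set 1 left and set 2 right, with the line of equal change. The 80 orange members, those tested together with that id and holding at least 0.5 of its counts, lie closer to the line, a median of 0.30 and 0.11 away, than the members under 0.1 of it, at 0.70 and 0.38.

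The 69 members above both nearest ids had a median opposite-strand sum of 387, and 8 of them lacked a reference entry. Of 65 tested in set 1, 18 rose and 9 fell, beside 14.1% and 5.66% of all rows. Of 58 tested in set 2, 18 rose and 6 fell, beside 10.8% and 5.81%. The same opposite-strand sums placed these members above their nearest ids. They were not split by the genotype through which they met the rule, so these counts are a description. The following were chosen after their values were seen, among the 12 largest. Mp7g05480 had 2602 opposite-strand and 6 sense counts beside nearest ids with 0 and 15 sense counts. Its opposite strand gave 37, 51 and 44 counts in set 1 controls against 399, 621 and 674 with Mpez1-1, and 47, 38 and 42 in set 2 controls against 208, 240 and 201 with Mpez1-2. All double mutant libraries lay above all controls, with log2 changes of 4.14 ± 0.27 (adjusted p 3.81e-05) and 2.56 ± 0.17 (adjusted p 2.78e-13).

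Mp4g23180 rose from 92, 95 and 76 counts to 294, 330 and 243 in set 1 (2.16 ± 0.14, adjusted p 3.7e-05) and from 67, 81 and 90 to 463, 479 and 585 in set 2 (2.88 ± 0.13, adjusted p 7.22e-18). Its nearest ids had 0 and 36 sense counts over all libraries. The 208 sense counts of Mp4g23180 were spread unevenly, from 6 to 52 per control library and 3 to 14 per double mutant library, and did not pass in either set.

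Mp5g06660 and Mp4g19890 passed in 1 set each. Mp5g06660, beside nearest ids with 12 and 13 sense counts, had 498, 439 and 322 opposite-strand counts in the set 1 controls and 376, 309 and 110 with Mpez1-1, which did not pass (-0.25 ± 0.33, adjusted p 0.685). With Mpez1-2 it rose from 286, 157 and 287 to 932, 1136 and 1181 (2.35 ± 0.22, adjusted p 0.000685). Mp4g19890 rose in set 1 from 603, 426 and 416 to 2140, 1914 and 1630 (2.42 ± 0.17, adjusted p 5.91e-05). In set 2 it had 271, 309 and 250 counts in the controls and 2, 6 and 125 with Mpez1-2, all below the controls but widely spread (-2.49 ± 1.17, adjusted p 0.274). Its neighbour Mp4g19880 rose on the sense strand in both sets, by 4.67 ± 0.36 and 3.28 ± 0.34. The difference of Mp4g19890 between the sets did not pass (-4.95 ± 1.21, adjusted p 0.0864).

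**Figure D4:**
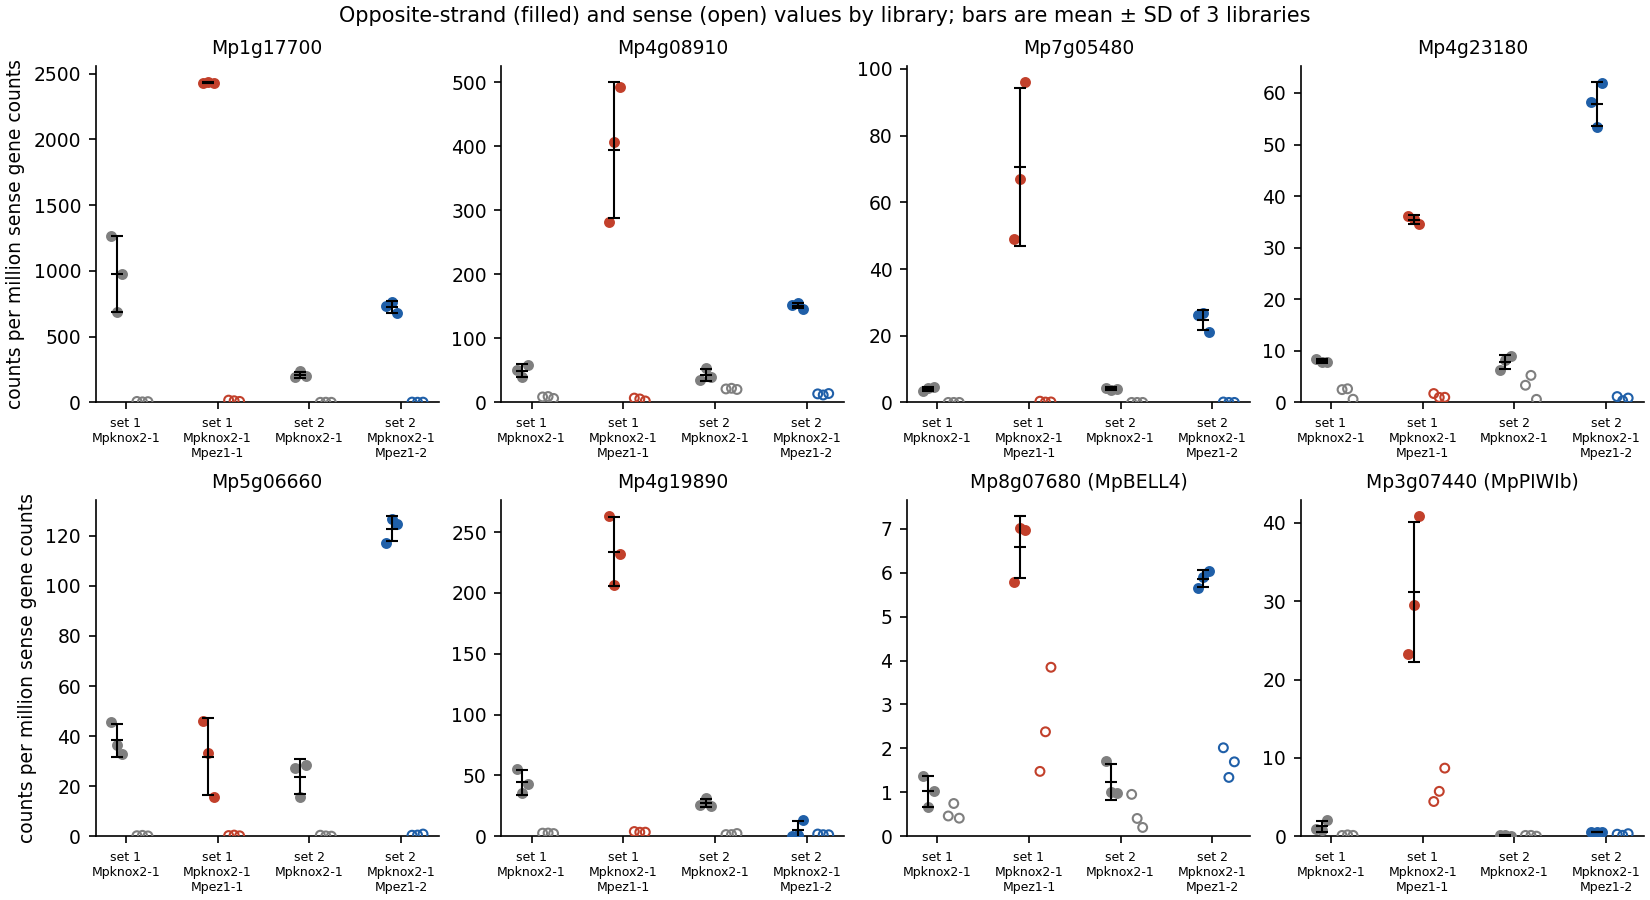
Opposite-strand (filled) and sense (open) CPM of 8 members in each library, grouped by set and genotype, with mean ± SD of 3 libraries for the opposite strand. Mp1g17700, Mp4g08910, Mp7g05480, Mp4g23180 and Mp8g07680 are higher in both double mutants, Mp5g06660 in set 2, and Mp3g07440 and Mp4g19890 in set 1.

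The 38 members with a symbol allow a reading by function. Of 35 tested in set 1, 10 rose and 2 fell, beside 14.1% and 5.66% of all rows, and of 33 tested in set 2, 8 rose, beside 10.8%. Of those described here, MpPIWIb, MpAGO4b, MpBELL3, MpRLK-Pelle_L-LEC11, MpCE8.6 and MpCupin78 met the rule through the double mutants alone, so their higher values there are a description. The rises counted above include MpPIWIb, MpAGO4b and MpRLK-Pelle_L-LEC11 in set 1. In set 2 they include MpAGO4b, MpRLK-Pelle_L-LEC11, MpCE8.6 and MpCupin78. The counts are therefore a description too. The 38 members include genes of small RNA pathways, transcription factors, receptor-like kinases and enzymes.

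Of 28 genes of small RNA and DNA methylation pathways, MpPIWIb and MpAGO4b were members. MpPIWIb (Mp3g07440), named after the PIWI branch of Argonaute proteins, had 10, 10 and 20 opposite-strand counts in the set 1 controls and 189, 273 and 287 with Mpez1-1 (4.64 ± 0.38, adjusted p 0.000127). Its sense counts went from 1, 2 and 1 to 36, 53 and 61 (5.55 ± 0.45, adjusted p 4.25e-05), so both strands rose. Next to it, MpPIWIa rose on the sense strand by 5.84 ± 0.56 (adjusted p 0.000141). In set 2 the opposite strand of MpPIWIb had 1, 1 and 0 counts in the controls and 4, 5 and 5 with Mpez1-2, a pooled ratio of 8.1 (exact 95% interval 1.86 to 73.4) too low to be tested. Reads of these near neighbours of like name may be split between them in counting, on which the labels are silent.

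MpAGO4b (Mp6g20400) is named after ARGONAUTE 4, which in Arabidopsis acts in RNA-directed DNA methylation. Its opposite strand went from 3, 1 and 1 counts to 9, 18 and 15 in set 1 (3.41 ± 0.58, adjusted p 0.00348) and from 1, 4 and 4 to 20, 23 and 13 in set 2 (2.79 ± 0.55, adjusted p 0.000308). Without control replicate 1 the set 1 value was 4.04. The sense strand had no count in the 6 controls and 1 to 5 in each double mutant library, and its nearest ids held 13 and 0 sense counts. On the sense strand, 5 of 23 tested genes of the list rose and 2 fell in set 1, and 4 of 21 rose and 3 fell in set 2, beside 50.6% and 37.8% called over all genes, with medians of -0.03 and -0.08 beside -0.02 and 0.00 over all genes. MpNRPE1b, a large subunit of RNA polymerase V by its name, rose in both sets (3.82 and 3.30). Of 11 PRC2 and RING1 genes none was a member. On the sense strand 3 of 9 tested rose and 2 fell in set 1, and 3 rose and 1 fell in set 2, beside 26.5% and 24.1%, and 20.4% and 17.4%, of all genes. The targeted MpE(z)1 itself (MpCXC3) was 1 of the 2 falls in set 1 (-1.06) and the only fall in set 2 (-0.78).

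The BELL genes encode homeodomain proteins that pair with KNOX proteins such as the mutated MpKNOX2. MpBELL4 (Mp8g07680) rose on both strands in both sets. Its opposite strand gave 15, 8 and 10 counts in set 1 controls against 47, 65 and 49 with Mpez1-1 (2.70 ± 0.35, adjusted p 0.00121), and 18, 10 and 10 in set 2 controls against 45, 53 and 57 with Mpez1-2 (2.22 ± 0.34, adjusted p 8.04e-06). Sense counts went from 5, 9 and 4 to 12, 22 and 27 in set 1 (2.20 ± 0.45, adjusted p 0.00416) and from 10, 4 and 2 to 16, 12 and 16 in set 2 (1.64 ± 0.52, adjusted p 0.0225). The set 2 sense call was lost without control replicate 2 or 3 or Mpez1-2 replicate 1 or 3, and the value was 2.42 without control replicate 1. Its nearest ids held 1 and 0 sense counts over all 12 libraries.

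MpBELL3 and MpBELL5 were smaller. MpBELL3 had 3 to 5 opposite-strand counts per set 1 control and 7 to 10 with Mpez1-1, too low to be tested, and its set 2 change of 1.07 ± 0.42 did not pass (adjusted p 0.0844). MpBELL5 had 162 opposite-strand and 155 sense counts, beside nearest ids with 1 and 2 sense counts, and passed in neither set on either strand, its opposite strand in set 2 being too low to be tested. Among other transcription factors, MpMYBL3 rose on the sense strand by 2.07 ± 0.37 (adjusted p 0.00212) and 1.65 ± 0.33 (adjusted p 0.00119). Its opposite strand stood at 23.0 ± 3.58 against 23.6 ± 3.27 CPM in set 1 and 26.4 ± 2.23 against 27.5 ± 2.76 in set 2, with log2 changes of 0.05 in both.

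Lectin receptor-like kinases were represented by 3 members. The opposite strand of MpRLK-Pelle_L-LEC28 rose by 2.41 ± 0.26 (adjusted p 0.000568) and 1.60 ± 0.25 (adjusted p 7.09e-05). That of MpRLK-Pelle_L-LEC11 rose from 3, 5 and 5 to 27, 28 and 31 counts in set 1 (3.14 ± 0.41, adjusted p 0.00121). In set 2 it rose from 7, 0 and 0 to 38, 64 and 39 (4.46 ± 0.60, adjusted p 1.35e-05), and to 8.63 when control replicate 1, the only control with counts, was left out. MpRLK-Pelle_L-LEC6, with 1301 opposite-strand and 6 sense counts, passed in neither set (-0.30 and -0.09).

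Among transporters and enzymes, MpABCG28, an ABC transporter gene, rose by 1.51 ± 0.24 (adjusted p 0.00258) and 0.79 ± 0.20 (adjusted p 0.00464), the latter call lost without Mpez1-2 replicate 3. MpDWF5-like, named after a sterol reductase of Arabidopsis, rose by 1.37 ± 0.34 (adjusted p 0.0218) and 1.5 ± 0.36 (adjusted p 0.00328), the former lost without control replicate 2 or 3. MpGST15, a glutathione transferase gene, rose in set 1 by 1.64 ± 0.34 (adjusted p 0.00899) and had 0.26 ± 0.40 in set 2. MpTUB4, a tubulin gene with 2816 opposite-strand and 316 sense counts, fell in set 1 from 430, 518 and 399 counts to 223, 181 and 94 (-1.01 ± 0.23, adjusted p 0.0166), a call lost without control replicate 2 or 3 or Mpez1-1 replicate 2. Its nearest ids held 2 and 62 sense counts. MpPP1I1 (0.69 ± 0.17, adjusted p 0.0238) and MpDOXC32 (1.14 ± 0.28, adjusted p 0.0211) rose in set 1, and MpPOD6, a peroxidase gene by its name, fell there (-1.65 ± 0.42, adjusted p 0.0238). All these calls were lost without control replicate 2 or 3, those of MpPP1I1 and MpDOXC32 also without Mpez1-1 replicate 2, and those of MpDOXC32 and MpPOD6 without control replicate 1. In set 2, MpCE8.6 (2.19 ± 0.52, adjusted p 0.00287) and MpCupin78 rose, the latter from 0, 0 and 6 counts by 3.93 ± 0.69 (adjusted p 0.000298), or 7.90 without control replicate 3, and not by DESeq2. For none of MpGST15, MpPP1I1, MpDOXC32, MpPOD6, MpCE8.6 and MpCupin78 did the edgeR test of the difference between the sets pass (adjusted p 0.0557 to 0.922).

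In 4 members the strands passed in opposite directions within a set. In set 1 this held for 1 of the 29 risen and 2 of the 15 fallen members tested on their own sense strand, beside 7 of 131 and 4 of 29 other rows. In set 2 it held for 1 of 25 and 1 of 10, beside 4 of 71 and 1 of 47. These shares were not tested, so the trait is not shown to be particular to the members. The strands of Mp7g04550 passed in opposite directions in both sets. Its opposite-strand counts went from 53, 81 and 56 to 19, 13 and 19 in set 1 and from 219, 236 and 192 to 100, 132 and 119 in set 2, while its sense counts went from 16, 15 and 6 to 30, 39 and 26 and from 2, 6 and 10 to 13, 20 and 21. The opposite strand fell by -1.42 ± 0.34 (adjusted p 0.0186) and -0.68 ± 0.14 (adjusted p 0.00073), and the sense strand rose by 1.80 ± 0.32 (adjusted p 0.00202) and 1.76 ± 0.48 (adjusted p 0.0106). The fall in set 1 was lost without control replicate 2 or 3 or Mpez1-1 replicate 2. Mp7g04560 beside it fell on the sense strand by -1.84 and -0.70.

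Mp4g08910, described above, rose on the opposite strand in both sets and fell on its sense strand by -0.72 ± 0.12 in set 2 (adjusted p 0.00034). Its sense value in set 1 was -0.70 ± 0.35 and did not pass. Of its neighbours, Mp4g08920 rose on the sense strand by 3.0 and 1.82 and Mp4g08900 fell by -0.80 and -0.43. Mp3g08360 fell on the opposite strand by -1.40 ± 0.25 (adjusted p 0.0051) and rose on the sense strand by 0.63 ± 0.16 (adjusted p 0.01) in set 1. Mp2g20970 rose on the opposite strand in both sets (1.26 ± 0.31, adjusted p 0.0218, and 1.15 ± 0.30, adjusted p 0.0059). It met the rule through the double mutants alone, so these rises are a description. On its sense strand it fell in set 1 (-1.79 ± 0.33, adjusted p 0.00253) and rose in set 2 (2.45 ± 0.52, adjusted p 0.002), the latter at 3.13 without control replicate 1. The rise of its opposite strand in set 1 was lost without control replicate 1 or 2 or Mpez1-1 replicate 2. MpWRKY8, the gene before Mp2g20970, rose by 1.42 and 1.72.

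On the sense strand, 126 members had enough counts to be tested in set 1, of which 36 rose and 12 fell, beside 26.5% and 24.1% of all genes (50.6% in either direction). In set 2, 133 were tested, of which 21 rose and 8 fell, beside 20.4% and 17.4% (37.8%). These were 28.6% and 9.52% of the tested members in set 1 and 15.8% and 6.02% in set 2. Falls in set 1 numbered 4, 7 and 5 without control replicate 1, 2 and 3 and 4 without Mpez1-1 replicate 2. Falls in set 2 numbered 3 without control replicate 2 and 4 without Mpez1-2 replicate 1 or 2.

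The change differed between the sets in 44 members, 23 with a higher and 21 with a lower log2 change in set 2 than in set 1. These were 3.72% and 3.40% of 618 members, beside 1.18% and 1.44% of all 2292 rows (2.62% in either direction). The 4 with the smallest adjusted p (0.000357 each) were all lower in set 2. Mp6g04060 rose in set 1 from 99.1 ± 3.64 to 158 ± 3.72 CPM (0.69 ± 0.09, adjusted p 0.00121) and had 77.1 ± 5.02 and 69.3 ± 1.06 in set 2. Mp1g12000 rose in set 1 from 290, 243 and 238 to 334, 390 and 426 counts (1.03 ± 0.18, adjusted p 0.00471) and fell in set 2 from 251, 246 and 252 to 141, 163 and 163 (-0.48 ± 0.13, adjusted p 0.00617). Its neighbour Mp1g12010 rose by 0.62 and fell by -0.55 on the sense strand.

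Mp3g23530 rose in set 1 from 176, 192 and 129 to 270, 400 and 350 counts (1.49 ± 0.17, adjusted p 0.000803) and did not pass in set 2 (-0.37 ± 0.19, adjusted p 0.201). This member met the rule through the double mutants alone, so its values are a description. The sense strand of Mp3g23520 beside it rose by 1.37 and fell by -0.48. Mp7g00750 rose in both sets, from 12, 19 and 22 to 218, 356 and 310 counts in set 1 (4.48 ± 0.31, adjusted p 4.88e-05) and from 92, 81 and 66 to 301, 308 and 371 in set 2 (2.23 ± 0.14, adjusted p 8.92e-14). The double mutants stood at 36.5 ± 8.85 and 37.1 ± 2.53 CPM, and the controls at 1.64 ± 0.578 in set 1 and 7.82 ± 1.14 in set 2. Its neighbour Mp7g00770 rose by 2.26 and 0.95 on the sense strand. The number of members with a difference depended on single libraries. Higher ones numbered 12 without Mpez1-1 replicate 2, 13 to 15 without Mpknox2-1 replicate 2 or 3 of set 1, Mpknox2-1 replicate 2 of set 2 or any Mpez1-2 library, and lower ones 10 without Mpknox2-1 replicate 1 of set 1.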

How the data were processed

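Total RNA was taken from thalli, polyadenylated RNA was selected and directional libraries were made, per the labels' protocols. The submitters' processing notes name Trim Galore and STAR. The genome build, the counting tool and how it treated reads shared by several rows are unknown here. The authors deposited 2 tables of raw counts for each of the 12 libraries, over 19441 gene rows and 89262 transposable element copies. The second table was read as the opposite strand of genes from its name and its gene counts, 1.66% to 2.17% of the gene counts of both tables. The element copies held 366632 to 1028910 counts in the second tables and 29645 to 85937 in the first.

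The tests were edgeR 4.0.16 quasi-likelihood tests (robust glmQLFit, then glmQLFTest, R 4.3.3). The filter on low counts was filterByExpr (at least 10 counts, 15 in total). Library sizes and TMM factors came from genes and element copies of the first tables, also for the opposite strand. P-values were adjusted by Benjamini-Hochberg over all gene rows tested in a table, with a threshold of 0.05. Each double mutant was compared with its own set's controls in a fit of 6 libraries, and a fit of 12 gave the mean and the difference (set 2 minus set 1). The SE of a log2 change is its size over the square root of the F statistic. Scaled values (CPM) are counts per 1000000 sense gene counts. A group at 0 was given a floor of 3 counts over its libraries, and 1 to 3 counts an exact 95% interval, both for counting error only. Alternatives were DESeq2 1.42.0, other scalings, no filter, a replicate block and each library left out. The procedure was tested on simulated data.

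Members and gene lists were chosen with earlier results of these data known. Named were the 12 largest members, up to 8 in each direction passing in both sets by their smaller change, 4 with the smallest p for the difference, those whose strands passed in opposite directions, called members with a symbol, those nearest the rule's limits, their nearest ids and the targeted genes. The matching pairs, other members with a symbol and members above both nearest ids were chosen after their values were seen. Symbols came from RefSeq's table of MpTak2 version 7.1, by identifier number.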

Additional observations from a re-analysis of the deposited data

Results flagged for a closer look

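Each of the following members changed by a different amount in the sets by the interaction test (edgeR adjusted p under 0.05 over all rows, values on the log2 scale as set 2 minus set 1). Allele, set and any accession cannot be told apart. Mp3g23530 and Mp2g25300 met the rule through the double mutants alone, so their values are a description. The difference was -0.90 for Mp6g04060, -1.55 for Mp1g12000, -1.90 for Mp3g23530 and -2.30 for Mp7g00750, and these calls held without each library in turn. The same held for Mp7g05480 (-1.63), Mp1g15570 (2.23) and Mp3g08360 (1.49). Mp7g13880 differed by 1.01, a call lost without Mpez1-1 replicate 2 or Mpez1-2 replicate 3.

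For the others, single libraries decided the call. Mp1g24335 differed by 0.70 (adjusted p 0.0276) and Mp4g10360 by 1.40 (adjusted p 0.0246). Both calls held without Mpez1-1 replicate 1 or 3, that of Mp1g24335 also without Mpknox2-1 replicate 1 of set 1 and that of Mp4g10360 without Mpez1-2 replicate 3, and each was lost without any other library. Mp4g08910 differed by -1.22 (adjusted p 0.0496) and its call held only without Mpez1-1 replicate 1. Mp2g25300 differed by -2.73 (adjusted p 0.0325) and held without Mpez1-1 replicate 3, Mpknox2-1 replicate 1 of set 2 or Mpez1-2 replicate 3. Mp3g18900 differed by 1.20 (adjusted p 0.0491) and held without Mpknox2-1 replicate 1 of set 1 or any Mpez1-1 library. Mp5g06660 differed by 2.56 (adjusted p 0.0218) and held without Mpez1-1 replicate 1 or 3, Mpknox2-1 replicate 2 or 3 of set 2 or Mpez1-2 replicate 3.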

How the results depend on the processing

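The rule chose 595 to 609 members when a library was left out, 769 with a minimum of 50, 458 with a minimum of 200, 538 with a ratio above 2, and 460, 448 and 461 from set 1, set 2 or the controls alone. Against 69 members above both nearest ids, there were 64 with lettered ids skipped and 21 above the 2 ids on each side, both alternatives chosen after seeing the data. Members lower in set 2 numbered 42, but 23 with DESeq2, 24 with no filter and 18 in the fit of all 12 libraries. Sense rises among members numbered 57 in set 1 and 43 in set 2 with no filter (36 and 21 in the main fits), and sense falls 6 and 4 with DESeq2 (12 and 8). The cause was not tested. Leaving out a library gave 230 to 522 opposite-strand calls over all rows in set 1 (364 with all), lowest without Mpez1-1 replicate 2, with 78 to 123 members higher and 38 to 78 lower. Set 2 gave 194 to 359 calls (258 with all), with 67 to 92 members higher and 23 to 43 lower. Differences numbered 36 to 104 (60 with all), 36 without Mpknox2-1 replicate 1 of set 1 or Mpez1-1 replicate 2, 38 without Mpez1-2 replicate 1 and 104 without Mpez1-1 replicate 3, with 12 to 33 members higher and 10 to 26 lower. The mean gave 444 to 631 calls, with 117 to 141 and 74 to 92 members. Sense calls of members ranged over 33 to 39 and 4 to 14 in set 1 and 18 to 26 and 3 to 8 in set 2. With the replicate block, calls numbered 273 in set 1, 264 in set 2, 45 for the difference and 442 for the mean. Same-numbered libraries correlated by -0.13 to 0.25 on the opposite strand and -0.01 to 0.09 on the sense strand. The labels do not say whether the numbers pair the samples, and these correlations cannot decide it. Of 4446 alternative values of named members, 4146 kept direction and side of the threshold, 245 lost and 55 gained a call, and none turned. Opposite-strand calls of the genes described that were lost in set 1 were Mp4g10360 and Mp1g17700 (no filter), Mp2g05940 (DESeq2, second tables' own totals), Mp7g04550, Mp2g20970, MpDOXC32 and MpPOD6 (replicate block), MpPP1I1 (no filter, own totals, replicate block) and Mp4g19890 (fit of all 12 libraries). In set 2 they were Mp4g10360 and Mp4g05170 (DESeq2, no filter, no TMM, own totals, fit of 12), Mp6g11320 (these and DESeq2 size factors), Mp2g24930 (these without own totals), Mp8g14850 (DESeq2, no filter, fit of 12), Mp1g12000 (no filter) and MpCupin78 (DESeq2). Differences lost were Mp1g24335 (DESeq2, no filter, replicate block), Mp4g10360 (no filter, replicate block), Mp4g08910 (DESeq2 size factors), Mp2g25300 and Mp3g18900 (DESeq2, replicate block) and Mp5g06660 (no filter). Sense calls lost with DESeq2 included Mp1g24335 in set 1 and MpBELL4 in set 2. A row with few counts in both groups was not tested, so a change there was not detectable at this depth.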
